A study of Homo sapiens with 2 samples.

Results

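The nuclear genes of the mitochondrial respiratory chain and of ATP synthase were followed in the human cell line 293T, derived from embryonic kidney, during treatment with Y27632, a small-molecule kinase inhibitor. Members were all genes with a current symbol starting with NDUFA, NDUFB, NDUFC, NDUFS, NDUFV, UQCR, ATP5, COX4, COX5, COX6, COX7 or COX8, together with SDHA, SDHB, SDHC, SDHD, CYC1 and CYCS, that had a value at 3 h or 6 h. This rule found 79 of 11057 named genes with a value. A further gene, the testis isoform COX7B2, had a probe but no value on either array. Of 98 protein-coding symbols in RefSeq that meet the symbol rule, 18 had no probe under a listed name, among them CYCS, SDHD and the complex III subunits UQCRQ and UQCR10.

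Each of 2 dual-colour arrays set cells given 10 µM Y27632 against untreated cells with a labelled time of 0 h. One array held cells treated for 3 h and the other cells treated for 6 h. The Cy5 channel carried the untreated and the Cy3 channel the treated cells on both, without a dye swap. Each time rests on 1 array. Values therefore come without replicates, errors between cultures or p-values. Inhibitor, time in culture and handling cannot be told apart, and the labels name no vehicle. In RNA of a whole culture, fewer cells of a kind and less RNA per cell cannot be told apart either. A shared control RNA is possible but not stated in the sources used here.

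The deposited value of a probe is a log ratio of its channels, read here in base 2. The sources used here do not say which channel is the numerator. A positive value therefore means either more or less transcript in treated cells, in the same sense for every gene, and no direction of regulation is given. Ratios hold no expression level, so the cell type could not be checked against its markers. Precision is limited by the number of arrays. The only error for a gene is the SD between probes of a same gene, 0.32 at 3 h (599 genes) and 0.34 at 6 h (594 genes). A gene's value was the mean of its probes. Of the 79 members, 74 rested on 1 probe and 5 on 2 probes. All 79 had a value on both arrays.

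The respiratory chain passes electrons from NADH (complex I) and succinate (complex II) through ubiquinone to complex III, by cytochrome c to complex IV, and finally to oxygen. Complexes I, III and IV pump protons across the inner mitochondrial membrane, and ATP synthase uses the returning protons to make ATP. Catalytic subunits are shared between the mitochondrial genome and the nucleus, and a large number of small supernumerary subunits, all nuclear, surround the cores. The transcription factors NRF1, GABP (an ETS family factor), YY1 and CREB are known to act on many of these nuclear promoters.

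The 79 members held both positive and negative log ratios, from −1.04 to 1.02 at 3 h and from −0.51 to 1.02 at 6 h. Their median log ratio was 0.08 at 3 h and 0.00 at 6 h, beside 0.02 for all named genes at either time. The SD across members was 0.32 at 3 h and 0.31 at 6 h, against 0.36 for all named genes at each time. At 3 h, 6 members lay at 1.5-fold or more on the positive side: SDHB, UQCRB, UQCR11, ATP5MK, NDUFS4 and NDUFB6. They are 7.59% of members, where 4.88% of all 10810 genes with a value were as high. On the negative side, COX7A1 and COX8C reached that size, 2.53% of members against 4.49% of all genes. At 6 h, 5 members were past this size on the positive side (6.33% against 5.63% of 10716 genes): COX8C, SDHB, UQCRB, UQCR11 and ATP5MK. No member was past it on the negative side, where 4.24% of all genes were. The positive shares lie near the background. At 2-fold, SDHB was the single positive member at 3 h, where 0.657% of all genes were as high, and COX7A1 the single negative one, where 0.953% of genes were as low. SDHB and COX8C were positive at this size at 6 h (background 0.7%), and no member was negative (background 0.728%).

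**Figure D1:**
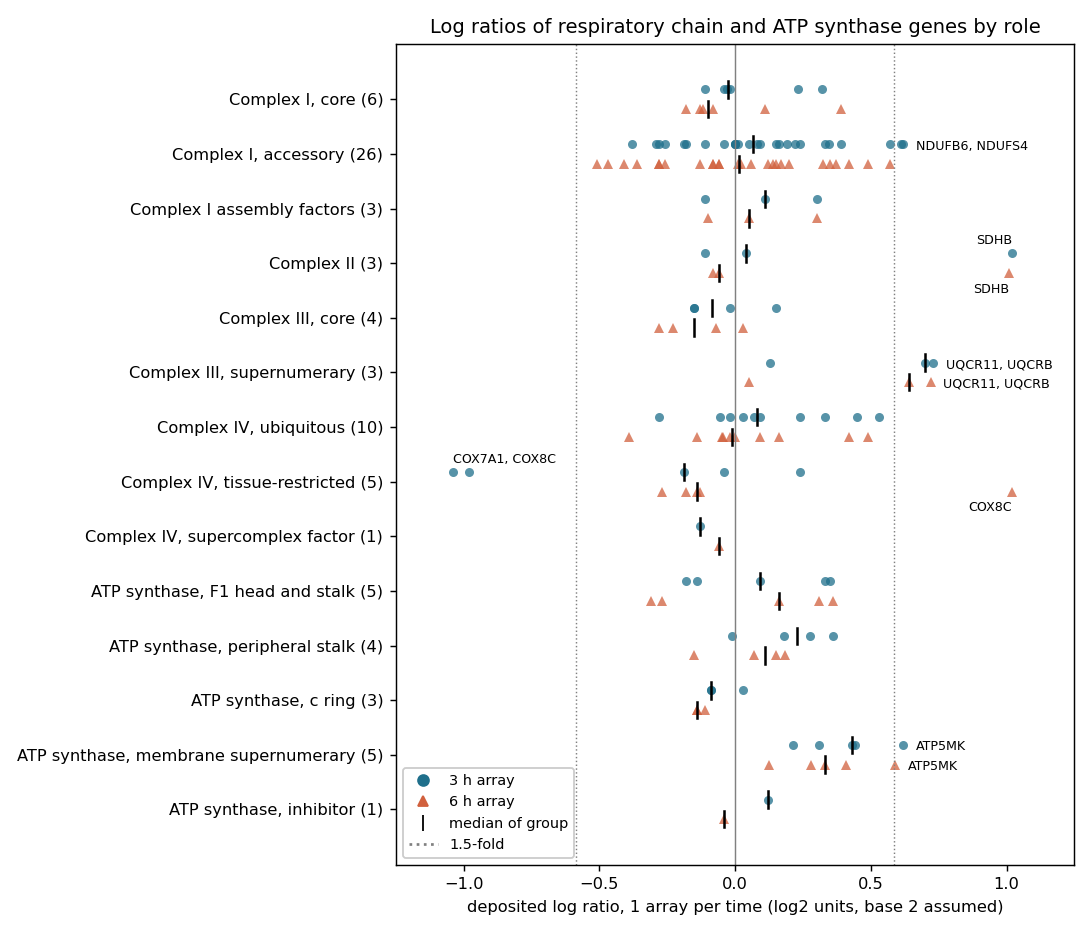
Deposited log ratio (log2 units, horizontal axis) of each of the 79 members at 3 h (circles) and 6 h (triangles), in rows by complex and role, with the number of genes in brackets. Black bars are medians, dotted lines mark 1.5-fold, and genes past that size are named. Most members lie between the dotted lines at both times, SDHB sits near 1 on both arrays, and COX8C is at −0.98 on the first array and 1.02 on the second.

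RefSeq promoters (GRCh38.p14) were matched by symbol for 65 of the 79 members. Each covers 250 bases before and 50 bases after the gene's start. They were searched on both strands for 4 short motifs: GCGCANGCG for NRF1, CCGGAAG for ETS factors including GABP, AAGATGGC for YY1 and TGACGTCA, the cAMP response element (CRE), which reads the same on both strands. The NRF1 letters occurred in 19 member promoters, or 29.2%, against 8.05% of all 27305 promoters and 12% of the 8872 promoters of measured genes. The ETS letters occurred in 18 (27.7%, against 10.7% and 15.2%), the YY1 letters in 10 (15.4%, against 3.03% and 4.6%) and the CRE letters in 5 (7.69%, against 1.98% and 2.99%). At least 1 of the 4 was present in 40 of 65 member promoters, 61.5%, against 20.6% of all promoters and 29.7% of those of measured genes. The median GC content was 62.0% for members, 58.3% for all promoters and 64.0% for measured genes. A match is a run of letters and not a measured binding site.

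**Figure D2:**
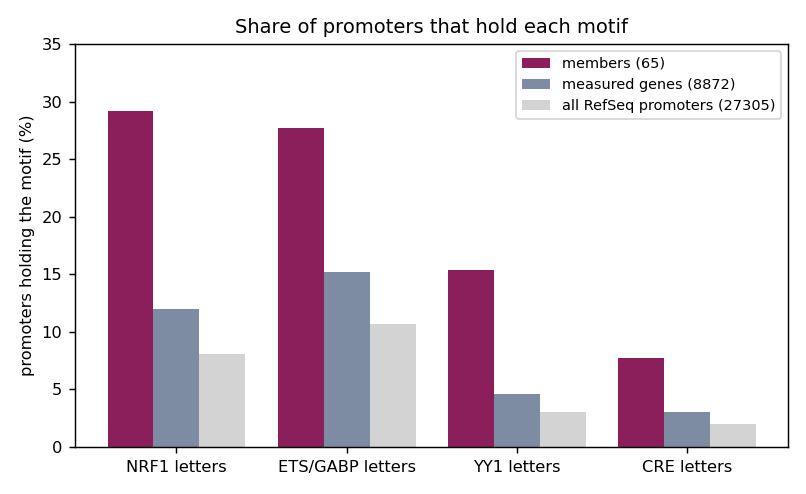
Percent of promoters (vertical axis) that hold the letters of each motif (horizontal axis), for 65 members, 8872 measured genes and 27305 RefSeq promoters of the same length. The members' bar is the tallest for each motif, with 29.2% for NRF1 and 27.7% for ETS.

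The last 150 bases before the start are shown for 7 members, picked after their values were seen so that both signs are included, as examples of what these promoters look like. SDHB, UQCR11, ATP5ME and NDUFB6 had positive values, NDUFA11 and COX8A negative values, and COX8C 1 of each sign. The sequences run 5′ to 3′ on the strand of the gene, and capitals mark the motif letters found on either strand inside the stretch.
SDHB, chr1:17054033-17054182, minus strand: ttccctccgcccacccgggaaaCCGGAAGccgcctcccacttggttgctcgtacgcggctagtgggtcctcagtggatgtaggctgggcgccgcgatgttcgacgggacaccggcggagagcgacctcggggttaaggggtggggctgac
UQCR11, chr19:1605463-1605612, minus strand: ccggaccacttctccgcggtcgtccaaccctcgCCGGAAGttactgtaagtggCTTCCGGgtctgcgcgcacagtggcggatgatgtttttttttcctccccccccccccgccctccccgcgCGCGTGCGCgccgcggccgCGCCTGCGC
ATP5ME, chr4:674277-674426, minus strand: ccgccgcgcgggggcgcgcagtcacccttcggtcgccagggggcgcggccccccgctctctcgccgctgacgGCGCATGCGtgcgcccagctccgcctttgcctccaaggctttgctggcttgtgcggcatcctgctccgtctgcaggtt
NDUFB6, chr9:32573160-32573309, minus strand: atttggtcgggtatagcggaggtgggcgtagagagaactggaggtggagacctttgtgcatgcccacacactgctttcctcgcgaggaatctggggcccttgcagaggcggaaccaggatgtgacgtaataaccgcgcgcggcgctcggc
NDUFA11, chr19:5903791-5903940, minus strand: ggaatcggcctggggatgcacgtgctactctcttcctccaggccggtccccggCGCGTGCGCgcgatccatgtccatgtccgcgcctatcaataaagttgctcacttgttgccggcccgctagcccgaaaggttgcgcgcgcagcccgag
COX8A, chr11:63974470-63974619, plus strand: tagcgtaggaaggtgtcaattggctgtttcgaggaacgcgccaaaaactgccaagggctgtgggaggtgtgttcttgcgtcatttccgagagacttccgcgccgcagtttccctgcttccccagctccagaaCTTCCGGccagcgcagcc
COX8C, chr14:93347032-93347181, plus strand: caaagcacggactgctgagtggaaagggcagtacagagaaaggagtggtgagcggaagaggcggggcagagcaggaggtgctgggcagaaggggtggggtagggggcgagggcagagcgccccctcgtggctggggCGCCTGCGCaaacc

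In RefSeq, 6 of these stretches overlap no other gene, and that of COX8C lies within the span of UNC79. SDHB has its ETS letters 128 bases before the start, and a CRE match that begins 4 bases before the start runs past the stretch shown. It also has YY1 letters 11 bases after the start, outside that stretch. ATP5ME has NRF1 letters 78 bases before the start, and more NRF1, CRE and ETS letters outside the stretch shown. UQCR11 has an ETS match on each strand and NRF1 letters 28 and 9 bases before the start. NRF1 letters also stand 97 bases before the start of NDUFA11 and 14 bases before that of COX8C, and ETS letters 18 bases before that of COX8A. NDUFB6, a positive member, has none of the 4 motifs in its 300 bases.

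Medians were set beside the letters. Members with NRF1 letters had a median of −0.02 at 3 h and 0.07 at 6 h, and those without had 0.10 and 0.01. The range with NRF1 letters ran from −0.98 (COX8C) to 0.70 (UQCR11) at 3 h. At 6 h it ran from −0.51 (NDUFA11) to 1.02, again COX8C. This gene, with 1 probe, thus crossed from the lowest to the highest of the 19, which moves their median. The median of the 6 h minus 3 h differences was −0.05 with NRF1 letters and −0.08 without. Members with ETS letters had medians of 0.18 and 0.10, and those without had 0.05 and −0.04. The 10 members with YY1 letters had 0.17 and 0.095, against 0.09 and 0 without, and the 5 with CRE letters had 0.22 and 0.14, against 0.09 and 0.01. Medians were thus higher with the letters for ETS, YY1 and CRE at both times and for NRF1 at 6 h, and lower for NRF1 at 3 h. The change for NRF1 includes the crossing of COX8C and is not a shared shift of these members. Among all measured genes with a promoter, the same split on ETS letters gave medians of 0.12 and 0.13 with, and 0.00 and 0.01 without. Among all measured genes, medians with NRF1 letters were 0.11 at each time, and without them 0.01. All measured genes with YY1 letters had 0.08 and 0.085, against 0.02 at each time without. Those with CRE letters had 0.05 and 0.07, against 0.03 at each time without. Members with at least 1 of the 4 motifs had 0.10 and 0.05, against 0.09 and −0.02 without. All measured genes with at least 1 had 0.10 and 0.11, against −0.01 at each time without. These medians are descriptions of 2 arrays.

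Complex I, the NADH dehydrogenase, had 32 measured subunits, with a median of 0.03 at 3 h that was −0.025 at 6 h. The 6 measured core subunits carry the flavin and iron-sulfur clusters and the quinone site. NDUFV1, which binds NADH, stood at 0.32 on the 3 h array and 0.11 on the 6 h array. NDUFS1, the large iron-sulfur subunit, had 0.23 and 0.39. The other 4 core subunits, NDUFV2, NDUFS3, NDUFS7 and NDUFS8, were slightly negative on both arrays, from −0.11 to −0.02 at 3 h and from −0.18 to −0.08 at 6 h. Core subunits thus lay on both sides of 0, with medians of −0.025 and −0.10.

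The 26 accessory subunits of complex I ran from −0.38 to 0.62 at 3 h and from −0.51 to 0.57 at 6 h. NDUFS4, an accessory subunit of the NADH-binding arm, had 0.62 at 3 h and 0.35 at 6 h, and was past 1.5-fold at 3 h alone. NDUFB6, of the membrane arm, had 0.61 and 0.57, so it was past the size at 3 h and just short of it at 6 h. Its neighbour in rank, NDUFB5, also of the membrane arm, had 0.57 and 0.49, just inside the size at either time. At the other end, NDUFA11, a membrane subunit at the joint with the other complexes, had −0.38 at 3 h and −0.51 at 6 h. NDUFC2 had −0.28 and −0.47, and NDUFB2 had −0.29 and −0.41. Of all genes, 5.98% were at or below NDUFA11 at 6 h. The 10 NDUFB subunits alone, which all sit in the membrane arm, spanned −0.29 to 0.61 at 3 h, nearly the whole range of the complex.

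Other accessory subunits stayed within 0.42 of 0 at each time. NDUFAB1, the mitochondrial acyl carrier protein, had −0.19 and −0.26. NDUFA6 had 0.33 and 0.42, and NDUFB10 had 0.39 and 0.37. NDUFA5 was measured by 2 probes, 1 at 0.51 and 0.44 and the other at 0.18 and 0.21. Both its probes were positive on both arrays, with a gap of 0.33 at 3 h. Of the complex I assembly factors within the symbol rule, NDUFAF1 had 0.30 at both times, NDUFAF4 had 0.11 and 0.05, and NDUFAF5 had −0.11 and −0.10.

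Complex II, succinate dehydrogenase, is also an enzyme of the tricarboxylic acid cycle. SDHB, its iron-sulfur subunit, stood at 1.02 on the 3 h array and 1.01 on the 6 h array. These are sizes of 2.03-fold and 2.01-fold, with the direction unknown. Of all named genes, 0.555% were at or above SDHB at 3 h and 0.653% at 6 h. The flavoprotein SDHA, to which SDHB binds, had −0.11 and −0.08, and the membrane anchor SDHC had 0.04 and −0.06. SDHB therefore stood apart from both other measured subunits of its complex on each array. Its value rests on 1 probe, whose specificity was not tested.

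In complex III, the cytochrome bc1 complex, the small subunits UQCRB and UQCR11, each with 1 probe, lay above the other measured subunits on both arrays. UQCRB, the ubiquinone-binding protein, had 0.73 at 3 h and 0.72 at 6 h. UQCR11, a small subunit that spans the membrane, had 0.70 and 0.64. UQCRH, the hinge protein that contacts cytochrome c1, had 0.13 and 0.05, from probes at 0.02 and 0.24 at 3 h and −0.07 and 0.17 at 6 h. The core protein UQCRC1 had −0.02 and −0.07, and its partner UQCRC2 had 0.15 and 0.03. CYC1, cytochrome c1, had −0.15 and −0.23, and UQCRFS1, the Rieske iron-sulfur protein, had −0.15 and −0.28. The medians of the 3 supernumerary subunits were 0.70 and 0.64, and those of the 4 core subunits −0.085 and −0.15. At 3 h UQCRC2 lay above UQCRH, so the groups overlapped. At 6 h the gene values did not overlap, but the lowest supernumerary value, 0.05 for UQCRH, lay next to the highest core value, 0.03 for UQCRC2. That UQCRH value is the mean of probes of opposite sign, and its probe at −0.07 lies below UQCRC2. Both values also lie closer together than the SD between probes of a same gene, 0.34 at 6 h.

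**Figure D3:**
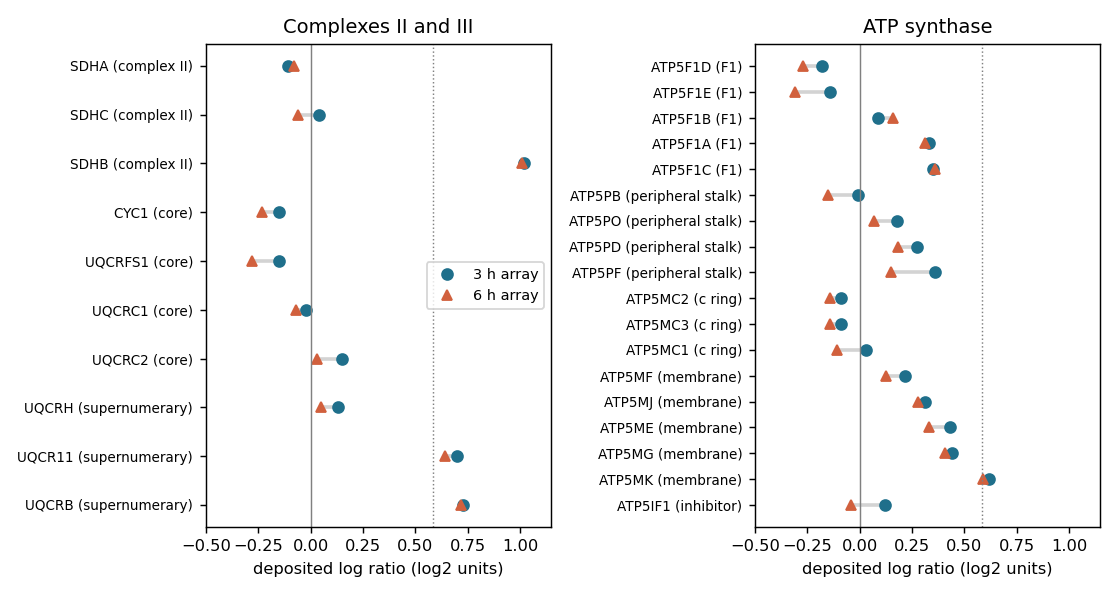
Deposited log ratio (log2 units) of each measured subunit of complexes II and III and of ATP synthase, at 3 h (circles) and 6 h (triangles). The role is in brackets, the grey bar joins both arrays, and the dotted line marks 1.5-fold. SDHB, UQCRB and UQCR11 lie apart from the other subunits of their complexes, and all 5 membrane supernumerary subunits of ATP synthase are positive.

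Complex IV, cytochrome c oxidase, had 16 measured genes, with medians of 0.005 at 3 h and −0.0475 at 6 h. Its catalytic core is encoded by the mitochondrial genome and was not analysed here, so all members are supernumerary. Among the 10 ubiquitous subunits, COX6C was the highest, with 0.53 and 0.49, followed by COX7A2 with 0.45 and 0.42. COX4I1, the first nuclear subunit to join the core, had 0.33 and 0.16, and COX5A had 0.24 and 0.09. The lowest was COX8A, with −0.28 at 3 h and −0.39 at 6 h. COX5B, COX6B1, COX7B and COX7C lay between −0.14 and 0.09 at both times. The probes of COX6A1 differed in sign, at −0.18 and 0.07 at 3 h and −0.16 and 0.07 at 6 h, so its means of −0.055 and −0.045 describe neither probe. COX7A2L, which links complexes III and IV into supercomplexes, had −0.13 and −0.06.

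Tissue-restricted isoforms of complex IV held the largest negative value and the largest change between arrays. COX8C, a testis isoform of COX8A, stood at −0.98 on the first array and 1.02 on the second, opposite signs that lie 2 log2 units apart. COX7A1, the heart and skeletal muscle form of COX7A2, had −1.04 at 3 h and −0.14 at 6 h. COX6A2, the muscle form of COX6A1, had 0.24 and −0.18. COX4I2, the lung form of COX4I1, had −0.04 and −0.27, and COX6B2, the testis form of COX6B1, had −0.19 and −0.13. The SD of the 6 h minus 3 h difference was 0.997 across these 5 isoforms and 0.06 across the 10 ubiquitous subunits. Their ubiquitous counterparts moved by at most 0.17 between arrays. Each isoform had 1 probe, and spot intensities were not used here, so whether these spots lay near background was not tested.

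**Figure D4:**
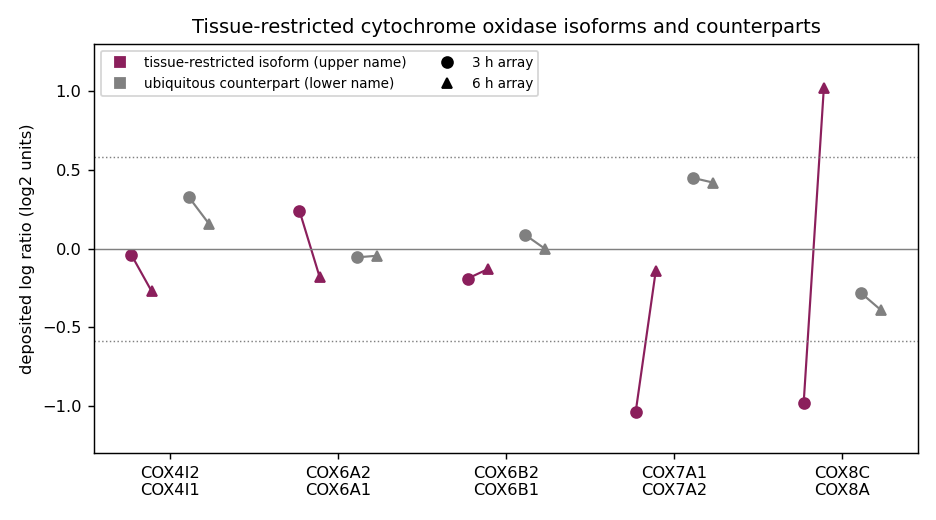
Deposited log ratio (log2 units, vertical axis) of 5 tissue-restricted complex IV isoforms (upper names) and their ubiquitous counterparts (lower names), at 3 h (circles) and 6 h (triangles), with dotted lines at 1.5-fold. COX8C crosses from −0.98 to 1.02 and COX7A1 from −1.04 to −0.14, while each counterpart stays within 0.17 of its own 3 h value.

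Markers of the tissues that use these isoforms (testis, muscle and lung), and of kidney, the origin of the cell line, were read beside them. Of 14 testis germ cell markers, 7 had a value at 3 h and 5 at 6 h, with medians of −0.05 and −0.15. All 5 with both values had a lower ratio at 6 h, with differences from −0.96 to −0.04, whereas COX8C had a higher one. No marker of the 4 tissues reached 1.5-fold at 3 h. At 6 h ODF1, a sperm tail protein, had −1.44, the muscle genes MYH7 and MYOG had −0.85 and 0.71, and FOXJ1, of ciliated airway cells, had −0.71. In the difference ODF1 and the sperm protease ACR were at −0.96 and −0.85, and the kidney markers AQP1 and CDH16 at 0.91 and 0.62. Of 14 muscle markers, 6 and 9 had a value, with medians of −0.265 and −0.04. Lung markers had medians of −0.24 and −0.11 over 4 of 6 genes, and kidney epithelial markers −0.38 and −0.28 over 9 of 10. Olfactory receptor genes, which most tissues do not transcribe, had medians of −0.17 over 154 genes at 3 h and −0.22 over 133 genes at 6 h. Their part in the isoforms' values was not tested.

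ATP synthase had the highest median of the complexes with more than 10 measured genes, 0.20 at 3 h and 0.14 at 6 h over 18 genes. The value differed by part of the enzyme. All 5 small supernumerary subunits of the membrane domain, which help join the enzyme into dimers, were positive on both arrays. Of all named genes, 51.3% were positive at 3 h and 51.5% at 6 h. ATP5MK had 0.62 at 3 h and 0.59 at 6 h (0.57 with the array centred on the median of all genes, short of 1.5-fold), ATP5MG (subunit g) had 0.44 and 0.41, and ATP5ME (subunit e) had 0.43 and 0.33. ATP5MJ had 0.31 and 0.28, and ATP5MF (subunit f), from 2 probes that were both positive, had 0.215 and 0.125. Their median was 0.43 at 3 h and 0.33 at 6 h. In contrast, the 3 genes that encode the same c subunit of the rotor ring lay at or below 0.03 at 3 h and were all negative at 6 h. ATP5MC1 had 0.03 and −0.11, and ATP5MC2 and ATP5MC3 each had −0.09 and −0.14. The membrane supernumerary and c ring genes did not overlap at either time. Their nearest values were 0.215 (ATP5MF) and 0.03 (ATP5MC1) at 3 h, and 0.125 and −0.11 at 6 h. These lie closer together than the SD between probes of a same gene, 0.32 and 0.34. All of these genes but ATP5MF rest on 1 probe.

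In the catalytic F1 part, ATP5F1A and ATP5F1C, the alpha and gamma subunits, stood at 0.33 and 0.35 on the 3 h array and at 0.31 and 0.36 on the 6 h array. ATP5F1B, the catalytic beta subunit that pairs with alpha, had 0.09 and 0.16. The delta and epsilon subunits of the central stalk were the lowest of the enzyme. ATP5F1D had −0.18 and −0.27, and ATP5F1E had −0.14 and −0.31. In the peripheral stalk, ATP5PF had 0.36 and 0.15, ATP5PD had 0.275 and 0.185, ATP5PO (OSCP) had 0.18 and 0.07, and ATP5PB had −0.01 and −0.15. ATP5IF1, the inhibitor that stops ATP hydrolysis, had 0.12 and −0.04. F1 and the peripheral stalk each held positive and negative subunits on both arrays.

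The difference of both log ratios, 6 h minus 3 h, was small and mostly negative in the members. It was below 0 in 65 of 79 members, or 82.3%, against 51.2% of all 10469 genes with both values. The median difference was −0.07, against −0.01 for all genes. The difference was negative in 28 of 32 complex I subunits, 7 of 7 complex III subunits, 16 of 18 ATP synthase genes and 9 of 10 ubiquitous complex IV subunits. In the remaining groups it was negative in 2 of 3 complex II subunits, 1 of 3 assembly factors and 2 of 5 tissue-restricted isoforms, and it was 0.07 in COX7A2L. It was within 0.1 of 0 in 54 members (68.4%), against 41.7% of all genes. Some of the other gene lists given below had higher shares than the members. The SD of the difference was 0.27 across all 79 members and 0.29 across all genes. Without assembly factors and tissue-restricted isoforms it was 0.07 across 71 members, but no such genes were left out of all genes.

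The largest negative differences among ubiquitous members were those of NDUFS4, at −0.27, and of NDUFV1 and ATP5PF, at −0.21 each. The largest positive one was that of NDUFS1, at 0.16. Past 1.5-fold in the difference were COX8C and COX7A1 on the positive side (2.53% of members, background 3.05%) and no member on the negative side (background 2.7%). COX8C alone was past 2-fold, where the background was 0.774% positive and 0.43% negative. Of 123 olfactory receptor genes with both values, 5 were past 2-fold on the positive side and 1 on the negative side. In either direction, 15.4% of them were past 1.5-fold, against 5.75% of all genes. Their SD of the difference was 0.45. The difference was −0.01 in SDHB and in UQCRB, −0.03 in ATP5MK and −0.06 in UQCR11. These were chosen here as past 1.5-fold with the same sign at both times, which favours a small difference. Where control RNA was shared it cancels in the difference, but time of treatment and array are confounded and cannot be told apart.

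**Figure D5:**
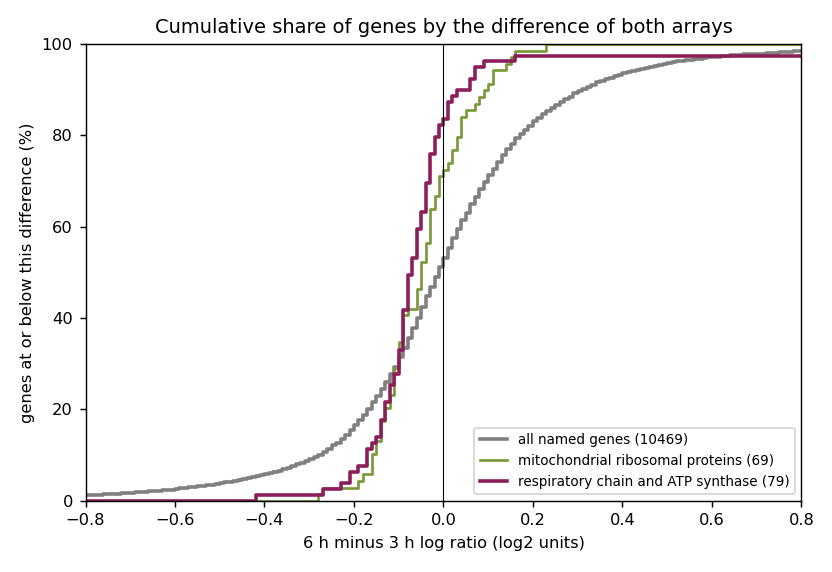
Cumulative percent of genes (vertical axis) at or below each 6 h minus 3 h difference (log2 units, horizontal axis), for all 10469 named genes with both values, 69 mitochondrial ribosomal protein genes and the 79 members. The members' curve is steep and has passed 82.3% before the line at 0, where all genes stand near 51.2%.

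Other gene lists were set beside this shift. The difference was negative in 12 of 16 ubiquinone-linked genes (75%), 13 of 20 assembly factors outside the symbol rule (65%), 18 of 28 import and cristae genes (64.3%) and 12 of 19 tricarboxylic acid cycle and pyruvate dehydrogenase genes (63.2%). It was negative in 7 of 13 exchange and coupling genes (53.8%) and 8 of 17 biogenesis regulators (47.1%). The difference was negative in 49 of 69 mitochondrial ribosomal protein genes (71.0%, median −0.05) and in 26 of 37 proteasome genes (70.3%, median −0.04). In cytosolic ribosomal protein genes it was negative in 17 of 36 (47.2%, median 0.01), and in olfactory receptors in 61 of 123 (49.6%, median 0.00). The share within 0.1 of 0 was 78.9% for tricarboxylic acid cycle and pyruvate dehydrogenase genes, 78.4% for proteasome and 75% for cytosolic ribosomal genes. It was 64.3% for import and cristae, 62.3% for mitochondrial ribosomal, 53.8% for exchange and coupling and 50% for ubiquinone-linked genes. Biogenesis regulators had 41.2%, assembly factors outside the symbol rule 30% and olfactory receptors 21.1%. The proteasome and cytosolic ribosomal lists were added after the values were seen. Whether either share in the members differs from that of mitochondrial ribosomal genes was not tested.

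Genes around the chain were read from lists by function. Of 20 measured assembly factors and chaperones outside the symbol rule, 16 were positive at 3 h and 12 at 6 h, with medians of 0.175 and 0.125. Of all named genes, 51.3% were positive at 3 h and 51.5% at 6 h. The members past 1.5-fold were TMEM242, an ATP synthase assembly factor, at 0.82 and 0.59, and TTC19, of complex III, at 0.51 and 0.70. Pyruvate dehydrogenase and tricarboxylic acid cycle genes had a median of 0.21 at each time, with 14 of 19 and 13 of 19 positive, and SUCLA2, a succinyl-CoA ligase subunit that works just before SDHB in the cycle, had 0.65 and 0.63. Genes that feed electrons to ubiquinone or make it had medians of 0.19 and 0.145 over 16 genes, and PRODH, proline dehydrogenase, had 0.675 at 3 h and −0.085 at 6 h. Import and cristae genes had medians of 0.135 and 0.115 over 28 genes. TIMM17A, a channel subunit of the inner membrane translocase, had 0.82 and 0.84, and its motor cofactor GRPEL1 had 0.59 and 0.32.

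Regulators of mitochondrial biogenesis had medians of 0.09 and 0.13 over 17 genes and pointed both ways. TFAM, which packages and transcribes mitochondrial DNA, had 0.64 at 3 h and 0.75 at 6 h, whereas the coactivator PPARGC1A had −0.95 and −0.67. NRF1 itself had −0.18 and −0.02, GABPA had 0.22 and 0.19 and YY1 had 0.43 and 0.50, all within 1.5-fold. Exchange and coupling genes had medians of 0.09 and 0.07 over 13 genes. Of the ADP/ATP carriers, SLC25A4 had 0.62 and 0.33, SLC25A5 had 0.43 and 0.45 and SLC25A6 had 0.35 and 0.36. The uncoupling protein genes UCP1 and UCP3, whose expression is typical of brown fat and muscle, also differed in sign between arrays. UCP1 had 0.32 and −1.15, and UCP3 had −0.04 and 0.65. Mitochondrial ribosomal protein genes had medians of 0.11 and 0.07 over 69 genes, and none reached 1.5-fold on either array.

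Many members have processed copies in the genome that a probe may also detect. RefSeq lists at least 1 pseudogene named after the member for 47 of the 79, with 18 for COX6C and 12 for NDUFA5. Members with such copies had a median of 0.11 at 3 h and 0.07 at 6 h, and the 32 without had −0.02 and −0.08. Of the 47, 70.2% were positive at 3 h and 61.7% at 6 h, and of the 32, 40.6% and 31.2%. Of all named genes, 51.3% and 51.5% were positive. The same split by copies was not made over all genes, so whether it is particular to the members is unknown. Whether the probes tell genes and copies apart was not tested.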

How the data were processed

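Log ratios of Cy3- and Cy5-labelled amplified RNA from 293T cells were used as deposited by the authors: 1 log2 value (base assumed) with 2 decimals per probe and array, for 24267 probes, with a median of 0 on each array. The sources used here name no background correction, normalization, spot filter, log base or numerator. At base 10, 1 SD of all probes at 3 h would be a 2.39-fold difference, and at base 2 it is 1.30-fold. The platform annotation named 13395 probes with 1 gene symbol, 0 with several and left 10872 unnamed. Against RefSeq (GRCh38.p14), 10822 of these symbols were current, 2446 were older names of a single gene and were replaced, and 127 were ambiguous. A gene was the mean of its probes. The 3 h array had 20503 probe values and the 6 h array 20337. With 1 array per time no test was run. Counts used 1.5-fold (0.58 in log2) and 2-fold.

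The members and lists were chosen with earlier results of these data known. Named were, in each role group, members past 1.5-fold, the highest and lowest at each time, tissue-restricted isoforms with their counterparts, and members whose probes disagree. Of the other mitochondrial lists and the tissue markers, genes past 1.5-fold were named; ribosomal, proteasome and olfactory genes were counted only. Further subunits were named to give whole complexes, and the transcription factors and carriers beside them were picked after the values were seen. Scripts used Python 3.11.15, pandas 2.3.3 and numpy 2.4.6 and were checked on simulated probe tables. The alternatives were the median or the farthest probe per gene, centring, genes on both arrays, current symbols, size, log base and subsets of members.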

Additional observations from a re-analysis of the deposited data

Results flagged for a closer look

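COX8C had opposite signs on the arrays, −0.98 at 3 h and 1.02 at 6 h, and its difference of 2 log2 units was the largest among the members. The difference was not tested, since each time has 1 array.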

How the results depend on the processing

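Of 427 values recomputed under 11 alternatives, 406 stayed within a limit and 21 moved further. For single genes the limit was the SD between probes of a gene. For the difference it was 0.47, from both arrays' SDs joined as if independent. That is wider than the SD of the difference across all genes, 0.29. For medians the limit was divided by the square root of the number of members, and for counts it was 1.5 times. A reversed sign was looked for only in single members past 1.5-fold. Each has 1 probe, and centring shifts it by 0.02, so 0 reversals was fixed in advance. Medians near 0 could change sign within the limit, as complex IV did at 3 h, from 0.005 to −0.015 with centring. With the median or farthest probe, centring (a shift of 0.02 on each array) or genes on both arrays, none of 78 values under each setting passed that limit. The median and genes on both arrays could not change any value. No member had more than 2 probes, and all 79 had a value on both arrays. The farthest probe could change only the 5 members with 2 probes and medians that include them. The shift in centring is small beside the limit for single genes, 0.32 at 3 h. Centring took ATP5MK to 0.57 at 6 h, which leaves 4 positive members in place of 5, and members below 0 at 3 h from 30 to 34. With current symbols alone, which leaves out ATP synthase, the members' median was 0.035 at 3 h and −0.0475 at 6 h, the 6 h positive count 3, and the assembly factor median 0.30 at each time. With members of 2 probes alone, complex I had 0.345 and 0.325, from NDUFA5 alone. At 2-fold, the counts were 1 positive and 1 negative at 3 h, 2 positive at 6 h and 1 positive in the difference. In base 10, 1.5-fold counts at 3 h were 30 positive (38.0% of members, 30.8% of all genes) and 11 negative (13.9% against 26.9%). At 6 h they were 22 positive (27.8% against 31.6%) and 15 negative (19.0% against 27.2%). In the difference, 2 members were positive (2.53% against 19.7%) and 6 negative (7.59% against 18.9%). In natural logarithms, 3 h counts were 11 positive (13.9% of members, 11.7% of all genes) and 2 negative (2.53% against 9.11%). At 6 h they were 11 positive (13.9% against 12.9%) and 3 negative (3.8% against 9.47%). In the difference, 2 members were positive (2.53% against 6.44%) and 1 negative (1.27% against 5.63%). Without COX8C and COX7A1, an alternative added after the data were seen, 0 members were past the size in the difference. No paired analysis was possible because each group has 1 array. No spot intensities were used, so signal over background could not be weighed.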
